A study of Mus musculus with 8 samples.

Results

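Hearts burn mainly fatty acids, and a small set of genes tunes how far glucose is admitted to the mitochondria in their place. The genes described are Pdk4, Pdk1, Pdk2, Ucp2, Ucp3, Angptl4 and Cpt1a, and a probe set was taken as a member when the platform's annotation gave it 1 of these 7 symbols. That rule found 13 of the 45037 probe sets that were no array controls: 1 for Pdk4, 4 for Pdk1, 1 for Pdk2, 2 for Ucp3, 2 for Angptl4 and 3 for Cpt1a. Ucp2 had 0 probe sets under its symbol and was not analysed here. The 7 genes were chosen with their values in all 4 groups of hearts known, so their differences are given as descriptions with an error and without a p-value.

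The samples were whole hearts of male mice aged 6 to 8 weeks, measured on 8 one-colour Affymetrix arrays, 2 per group. The 4 groups were MT-/- mice given doxorubicin (DOX), MT-/- mice given saline, MT+/+ mice given DOX and MT+/+ mice given saline. MT-/- stands for mice described as null for metallothioneins I and II, small cysteine-rich proteins that bind zinc and copper, and MT+/+ for the corresponding wild type. DOX is an anthracycline chemotherapy drug whose use is limited by heart damage. It was given once, intraperitoneally, at 15 mg/kg, and hearts were collected on day 4. The labels name no deletion restricted to heart muscle, so the genotype is not specific to it. They call the 2 samples of a group biological replicates, and give neither a strain background nor a statement on pooling.

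Pyruvate dehydrogenase turns pyruvate from glucose into acetyl-CoA, and the pyruvate dehydrogenase kinases PDK1, PDK2, PDK3 and PDK4 switch it off by phosphorylation. PDK4 is the kinase best known for being induced in heart and muscle by fasting, fatty acids, glucocorticoids and PPAR nuclear receptors. UCP3 is a mitochondrial inner membrane carrier of heart and skeletal muscle that also follows fatty acid supply. ANGPTL4 is a secreted inhibitor of lipoprotein lipase, the enzyme that frees fatty acids from circulating triglycerides, and CPT1A is a form of the carnitine palmitoyltransferase that admits long-chain fatty acids to mitochondria. The genes for PDK4, UCP3, ANGPTL4 and CPT1A are all textbook PPAR targets.

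The stretches of 250 bases upstream of the annotated starts of Pdk4 and Ucp3 are shown because these are the 2 members whose signal differed most between the genotypes under DOX. Both come from RefSeq (build GRCm38.p6), run 5′ to 3′ on the gene's own strand, and end at the base before the start. Pdk4 lies at chr6:5496279-5496528 on the minus strand and Ucp3 at chr7:100472741-100472990 on the plus strand. Capitals mark the letters AGGTCA, the nuclear receptor half-site.
Pdk4: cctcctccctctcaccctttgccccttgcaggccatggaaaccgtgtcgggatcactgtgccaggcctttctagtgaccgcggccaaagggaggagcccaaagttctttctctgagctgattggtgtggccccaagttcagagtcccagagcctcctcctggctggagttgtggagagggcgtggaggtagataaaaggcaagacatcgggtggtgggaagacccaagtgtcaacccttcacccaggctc
Ucp3: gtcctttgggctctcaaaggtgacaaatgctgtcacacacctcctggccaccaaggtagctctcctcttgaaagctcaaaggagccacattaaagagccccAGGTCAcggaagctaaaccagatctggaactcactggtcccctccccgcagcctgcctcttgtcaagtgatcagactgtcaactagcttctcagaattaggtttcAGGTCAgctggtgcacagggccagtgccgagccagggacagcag
The window of Ucp3 held AGGTCA at 149 to 144 and at 44 to 39 bases before the start, and the window of Pdk4 held 0 matches. On either strand, 14.0% of the 32851 promoter windows in the RefSeq table held AGGTCA. The other motifs searched on both strands were AGGTCANAGGTCA, the PPAR element, which contains AGGTCA and was in 0.0335% of windows, GTAAACA, the FOXO element, in 3.17%, and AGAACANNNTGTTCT, the glucocorticoid receptor element, in 0.00913%. None of these longer motifs was in the windows of the members. The table held windows for 6 of the 7 genes, and in the others the only match was 1 antisense AGGTCA before Cpt1a, at 94 to 89 bases. A match describes the letters of these windows and does not show that a factor binds there.

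The labels and the tissue were checked first. The probe sets of the inactivated genes were not lower on the arrays labelled MT-/-: Mt1 signal was 12549 and 12850 on MT-/- DOX arrays and 4667 and 5322 on MT-/- saline arrays, against 6735 and 9285 on MT+/+ DOX arrays and 3722 and 4034 on MT+/+ saline arrays. Mt2 signal was 2218 and 2213 on MT-/- DOX arrays, against 1210 and 2732 on MT+/+ DOX arrays. Under saline it was 968 and 1018 in MT-/-, against 452 and 485 in MT+/+. Deposited Mt1 signal was thus higher in MT-/- without overlap under both treatments, and Mt2 signal under saline only. The labels do not say how the alleles were made, so whether these probes lie in a disrupted stretch is unknown, and genotype names below are those of the labels. All 10 cardiomyocyte markers were above the array median on at least 1 array, with summed signal of 108600 to 109500 on MT-/- DOX arrays, 112800 to 117200 on MT-/- saline arrays, 107400 to 108100 on MT+/+ DOX arrays and 111000 to 113800 on MT+/+ saline arrays. In whole-heart RNA, fewer cells of a type and less RNA per cell cannot be told apart.

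Of the 13 probe sets, 10 passed the filter on dim signal (at or above the array's median on at least 2 of 8 arrays), and they covered 6 genes. The 3 that did not were 1434974_at for Pdk1, 1453410_at for Angptl4 and 1438156_x_at for Cpt1a. Their deposited intensities were 33.1 to 48.9, 7.28 to 15.3 and 19.7 to 46.5 over the 8 arrays in that order, so they carry little information. Differences below are log2 differences of quantile-normalized intensity with a pseudocount of 16 added, with the standard error of the limma fit on 2 arrays per group. The pseudocount makes differences of dim probe sets smaller than the ratio of their intensities. Arrays of a pair of groups are called overlapping when their normalized values are.

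Pdk4 had a deposited intensity of 1493 and 2025 on MT-/- DOX arrays, 2992 and 1833 on MT-/- saline arrays, 5379 and 6830 on MT+/+ DOX arrays and 3891 and 4216 on MT+/+ saline arrays. All 4 arrays labelled MT-/- lay below all 4 labelled MT+/+. Under DOX, Pdk4 was 3.65-fold lower in MT-/- than in MT+/+ hearts, a log2 difference of -1.87 ± 0.25, and under saline it was 1.77-fold lower, a difference of -0.82 ± 0.25. The saline difference hangs on the spread of the MT-/- saline arrays: it was -1.26 without replicate 1 of that group and -0.38 without replicate 2.

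The mean of the DOX arrays lay on opposite sides of the saline mean in the 2 genotypes for Pdk4. In MT+/+ hearts Pdk4 was higher with DOX than with saline by a log2 difference of 0.59 ± 0.25, and the arrays did not overlap. In MT-/- hearts the difference was -0.46 ± 0.25, and the arrays overlapped, since MT-/- saline replicate 2 lay between the 2 MT-/- DOX arrays. Without MT-/- saline replicate 1 this difference was -0.012, and without replicate 2 it was -0.91. The groups in falling order of Pdk4 signal were MT+/+ DOX, MT+/+ saline, MT-/- saline and MT-/- DOX, and the last pair did not differ beyond their spread.

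Ucp3 was measured by 2 probe sets that passed the filter. The brighter, 1420657_at, had an intensity of 91.5 and 59.7 on MT-/- DOX arrays, 250.1 and 182.3 on MT-/- saline arrays, 512.6 and 509.5 on MT+/+ DOX arrays and 271.9 and 396.5 on MT+/+ saline arrays. The 4 groups followed the same falling order as for Pdk4, and here no pair of neighbouring groups overlapped. The other, 1420658_at, had 88.5 and 81.1 on MT-/- DOX arrays, 110.9 and 131.2 on MT-/- saline arrays, 331.9 and 244.1 on MT+/+ DOX arrays and 194.3 and 221.1 on MT+/+ saline arrays, again in that order and without overlap. The MT-/- DOX values of 1420657_at included 59.7, which lay below its array's median, at percentile 37.7.

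**Figure D1:**
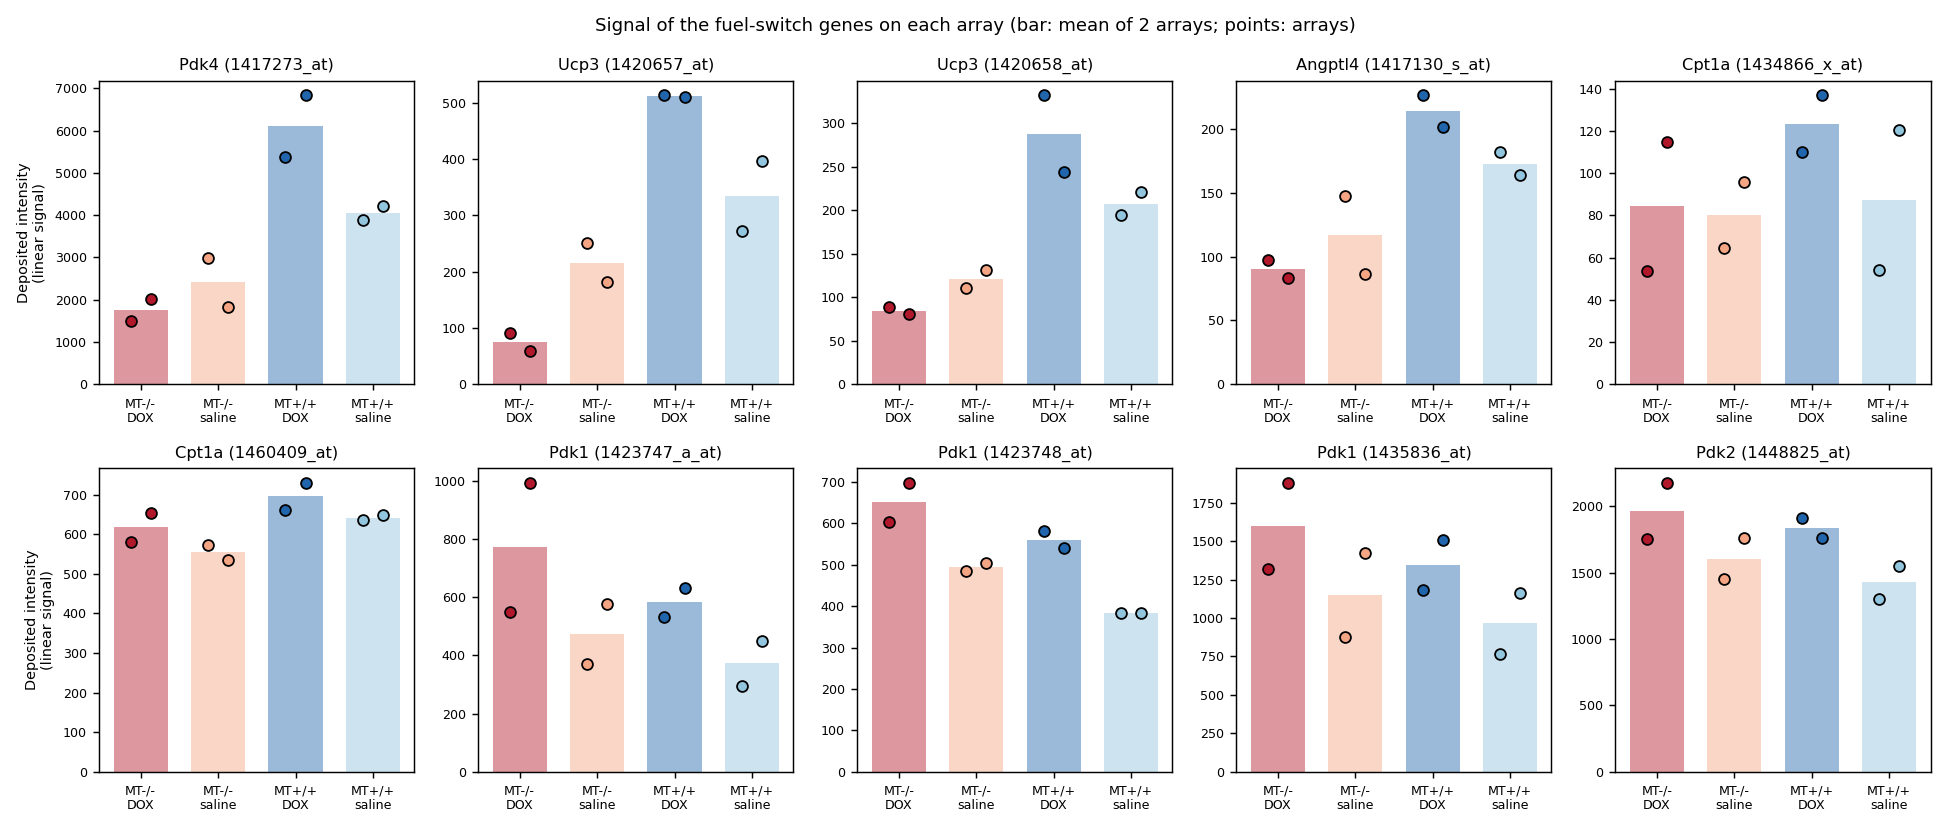
Deposited linear intensity (vertical axis, from 0) of the 10 tested probe sets of Pdk4, Ucp3, Angptl4, Cpt1a, Pdk1 and Pdk2 in the 4 groups (horizontal axis), with 1 point per array and a bar at the mean of the 2 arrays. Pdk4, both Ucp3 probe sets and Angptl4 share one order of group means, with the MT+/+ DOX bar tallest (6105 for Pdk4) and the MT-/- DOX bar shortest (1759 for Pdk4), while the Pdk1 and Pdk2 bars are taller with DOX than with saline in both genotypes.

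Under DOX, Ucp3 was 5.74-fold lower in MT-/- than in MT+/+ hearts by 1420657_at (log2 difference -2.52 ± 0.24) and 2.93-fold lower by 1420658_at (-1.55 ± 0.17). Under saline the differences were -0.63 ± 0.24 and -0.73 ± 0.17, and leaving out 1 of the saline arrays moved the first between -0.91 and -0.36. DOX hearts were lower than saline hearts in MT-/- (-1.31 ± 0.24 by 1420657_at and -0.41 ± 0.17 by 1420658_at) and higher than saline hearts in MT+/+ (0.58 ± 0.24 and 0.41 ± 0.17). With 1 MT+/+ array left out the last pair ranged from 0.31 to 0.86 and from 0.18 to 0.64. Both probe sets thus moved in opposite directions in the 2 genotypes with no overlap of arrays, a pattern held by 261 of the 24751 tested probe sets (1.05%), while 1.28% held its mirror image. Ucp3 was chosen with these values known, so nothing is read from that share. The difference of the 2 DOX effects was -1.89 ± 0.34 for 1420657_at, -0.82 ± 0.24 for 1420658_at and -1.05 ± 0.36 for Pdk4. For Pdk4 it was -0.60 without MT-/- saline replicate 1 and -1.50 without replicate 2. The interaction test called 0 of 24751 probe sets (0%) in the limma fit, against 573 at an unadjusted p under 0.05.

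Angptl4, by 1417130_s_at, had an intensity of 97.1 and 83.3 on MT-/- DOX arrays, 147.6 and 86.7 on MT-/- saline arrays, 226.1 and 201.2 on MT+/+ DOX arrays and 182.0 and 163.6 on MT+/+ saline arrays. Both MT-/- groups lay below both MT+/+ groups without overlap, as for Pdk4 and Ucp3. The lipase inhibitor was 2.12-fold lower in MT-/- than in MT+/+ hearts under DOX (log2 difference -1.09 ± 0.21) and 1.46-fold lower under saline (-0.54 ± 0.21). The saline value was -0.88 without MT-/- saline replicate 1 and -0.20 without replicate 2. The DOX difference was -0.28 ± 0.21 in MT-/-, where the arrays overlapped, and 0.27 ± 0.21 in MT+/+, where they did not. MT-/- saline replicate 1 sets the sign in MT-/-, where the difference was 0.062 without that array.

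Cpt1a had the bright probe set 1460409_at. Its intensity was 581 and 654 on MT-/- DOX arrays, 573 and 536 on MT-/- saline arrays, 662 and 730 on MT+/+ DOX arrays and 636 and 648 on MT+/+ saline arrays. MT-/- hearts were lower than MT+/+ hearts without overlap under both treatments, with differences of -0.19 ± 0.14 under DOX and -0.34 ± 0.14 under saline. The saline value was -0.21 under the deposited scaling. A second probe set, 1434866_x_at, ranged from 53.6 to 136.8, and its arrays overlapped in every comparison of 2 groups. Of the PPAR targets among the members, the carnitine palmitoyltransferase gene showed the smallest differences between genotypes under DOX by its bright probe set.

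**Figure D2:**
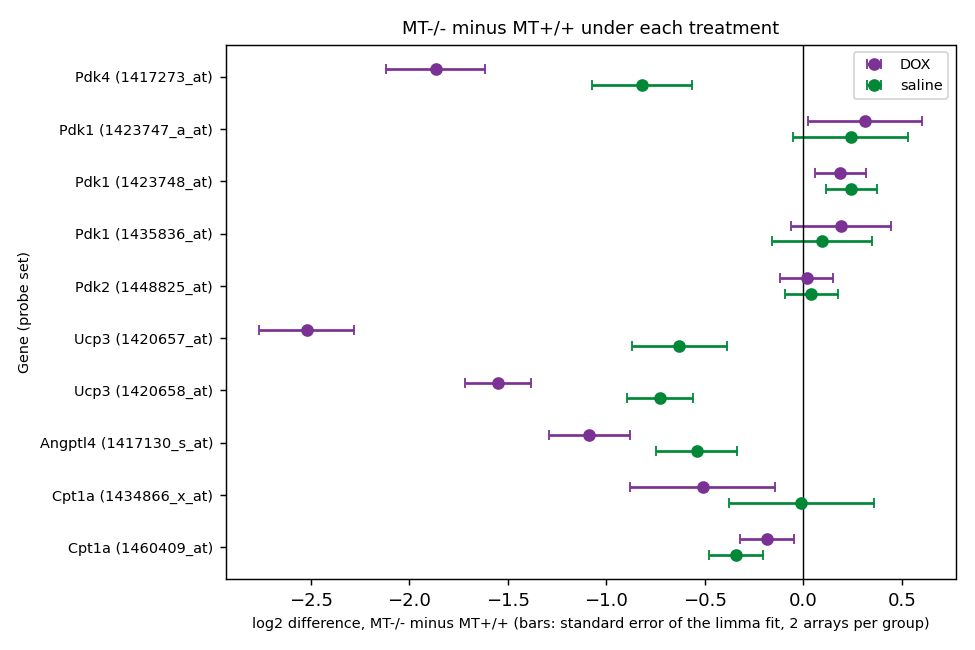
Log2 difference of MT-/- minus MT+/+ hearts (horizontal axis) for the 10 tested probe sets (vertical axis), under DOX and under saline, with bars of 1 standard error. Pdk4, Ucp3 and Angptl4 lie left of 0 under both treatments and further left under DOX (-1.87 against -0.82 for Pdk4), and the 3 Pdk1 probe sets and Pdk2 lie between 0.02 and 0.31.

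The remaining kinases showed another pattern, with mean signal higher on DOX arrays in both genotypes. Pdk1, the pyruvate dehydrogenase kinase gene known as a HIF1 target, had by 1423748_at an intensity of 603 and 698 on MT-/- DOX arrays, 485 and 503 on MT-/- saline arrays, 582 and 540 on MT+/+ DOX arrays and 384 and 383 on MT+/+ saline arrays. The DOX arrays were above the saline arrays in both genotypes, by 0.42 ± 0.13 in MT-/- and 0.47 ± 0.13 in MT+/+. This probe set was also higher in MT-/- than in MT+/+ hearts without overlap, by 0.19 ± 0.13 under DOX and 0.24 ± 0.13 under saline. By 1435836_at, Pdk1 had 1317 and 1878 on MT-/- DOX arrays, 877 and 1423 on MT-/- saline arrays, 1185 and 1508 on MT+/+ DOX arrays and 767 and 1164 on MT+/+ saline arrays, with DOX differences of 0.50 ± 0.25 in MT-/- and 0.40 ± 0.25 in MT+/+, where the arrays overlapped. By 1423747_a_at the DOX differences were 0.68 ± 0.29 in MT-/- and 0.61 ± 0.29 in MT+/+. In both of these last probe sets replicate 2 was above replicate 1 in all 4 groups, as in 19.2% of all tested probe sets. The same held for Cpt1a 1434866_x_at. Another 20.5% had replicate 1 above replicate 2 in all 4 groups, among them Angptl4 1417130_s_at. The main fit does not model the replicate number.

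Pdk2, the most widely expressed of the kinase genes, had an intensity of 1757 and 2178 on MT-/- DOX arrays, 1450 and 1763 on MT-/- saline arrays, 1910 and 1763 on MT+/+ DOX arrays and 1306 and 1551 on MT+/+ saline arrays. DOX hearts were higher than saline hearts by 0.26 ± 0.13 in MT-/- and 0.28 ± 0.13 in MT+/+. The arrays did not overlap after normalization, although the deposited values in MT-/- touched. Between genotypes Pdk2 differed by 0.02 ± 0.13 under DOX and 0.04 ± 0.13 under saline, with overlapping arrays. Pdk3, the kinase gene outside the members, had a DOX difference averaged over genotypes of 0.17 ± 0.09 that did not pass the limma test (adjusted p = 0.252).

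**Figure D3:**
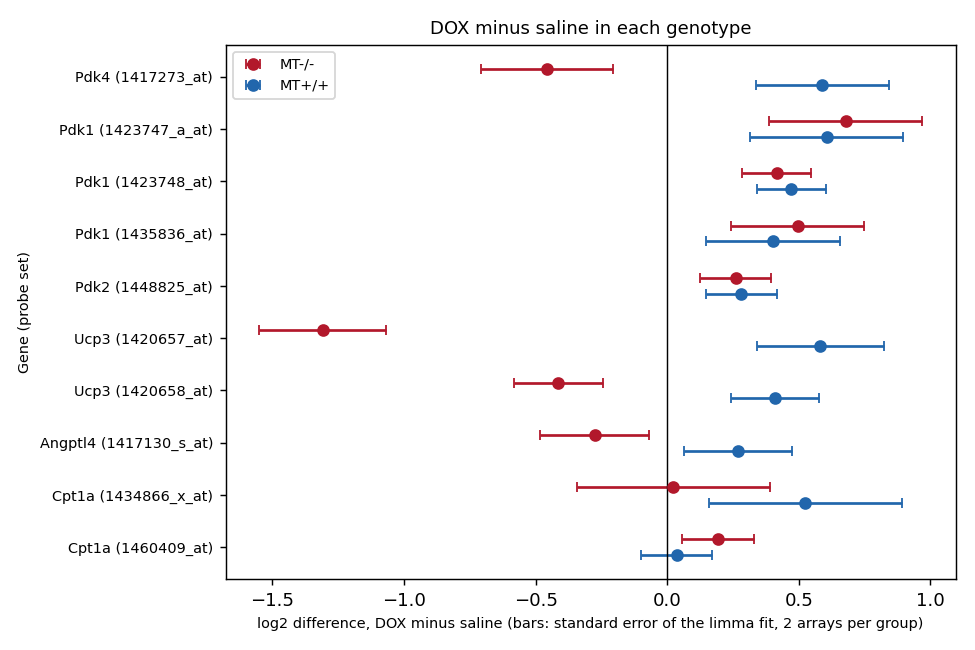
Log2 difference of DOX minus saline hearts (horizontal axis) for the 10 tested probe sets (vertical axis) in MT-/- and in MT+/+ mice, with bars of 1 standard error. All 10 points of MT+/+ mice lie right of 0, whereas in MT-/- mice Pdk4, both Ucp3 probe sets and Angptl4 lie left of 0 (-1.31 for Ucp3 1420657_at) and the Pdk1, Pdk2 and Cpt1a probe sets lie right of it. Cpt1a 1460409_at in MT+/+ (0.04 ± 0.14) and Cpt1a 1434866_x_at in MT-/- (0.02 ± 0.37) lie within 1 standard error of 0.

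Set against the whole array, 3 of the 10 tested probe sets of the members (Pdk4 and both of Ucp3) were past adjusted p 0.05 for MT-/- against MT+/+ under DOX, where 70 of 24751 probe sets (0.283%) were. The 70 were 42 without MT-/- DOX replicate 2, and 23 and 24 without MT+/+ DOX replicates 1 and 2. For DOX in MT-/-, 1 was (Ucp3 1420657_at, lower), against 6.21% of all, and for DOX averaged over genotypes 1 was (Pdk1 1423748_at, higher), against 13.9%. The members were chosen on these same contrasts, so nothing is read from these shares. No member was past the threshold for DOX in MT+/+, where limma called 2.48% of all probe sets and 4117 had an unadjusted p under 0.05, or for genotype under saline, where it called 0.186% and 2133 had one.

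Counted by arrays that do not overlap, 5 of the 10 were lower in MT-/- than in MT+/+ hearts under DOX (16.8% of all tested probe sets) and 1 was higher (16.5%). Under saline 5 were lower (20.0% of all) and 1 was higher (21.4%). The same 5 probe sets of 4 genes, Pdk4, Ucp3, Angptl4 and Cpt1a, were lower under both treatments, a pattern held by 6.78% of all tested probe sets. With DOX, 5 were higher (25.0% of all) and 2 lower (24.3%) in MT-/- hearts, and 7 were higher (22.4%) and 0 lower (22.3%) in MT+/+ hearts.

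Lists of genes around the switch were examined outside the 7 members: 104 genes, of which 92 were tested, each by its brightest probe set. The lists were chosen with earlier results of these data known, so no enrichment is read from their shares, here or list by list below. With DOX averaged over genotypes 24 rose and 11 fell, which is 38.0% against 14.8% of all 13008 genes tested (6.98% that rose and 7.81% that fell). The median difference was 0.13 for the 92 genes and -0.01 for all genes. In MT-/- hearts 14 rose and 5 fell, which is 20.7% against 6.74% of all genes (2.76% that rose and 3.98% that fell). In MT+/+ hearts 7 rose and 4 fell, which is 12.0% against 2.68% (1.24% and 1.45%). These counts move with single arrays: the 35 calls averaged over genotypes were 21 without MT-/- saline replicate 1 and 23 without replicate 2. The 19 in MT-/- were 30 without MT-/- DOX replicate 1, 5 without MT-/- DOX replicate 2, and 6 and 4 without MT-/- saline replicates 1 and 2. The 11 in MT+/+ were 3 without either MT-/- saline array, 2 and 0 without MT+/+ DOX replicates 1 and 2, and 1 and 0 without MT+/+ saline replicates 1 and 2.

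Between genotypes the same 92 genes held a single call. Under DOX 1 of the 92 was called and it was lower in MT-/- (1.09%, against 0.292% of all genes called, 0.169% higher and 0.123% lower). Under saline 0 were called (against 0.177%, 0.108% higher and 0.0692% lower, with 2133 probe sets at an unadjusted limma p under 0.05). That gene was Plin5, which codes for a lipid droplet coat protein of oxidative tissues and is a PPAR target. Its intensity was 1155 and 1135 on MT-/- DOX arrays, 1296 and 1345 on MT-/- saline arrays, 1881 and 2139 on MT+/+ DOX arrays and 1094 and 1336 on MT+/+ saline arrays. The MT+/+ DOX arrays stood above all others. Under DOX it was lower in MT-/- than in MT+/+ hearts by a log2 difference of -0.85 ± 0.13 (limma adjusted p = 0.0446), but the call was lost whichever array was left out (adjusted p = 0.0699 to 0.332) and under the deposited scaling (0.0772). Across the 18 tested PPAR targets of lipid handling the median genotype difference under DOX was -0.127, against -0.00479 for all genes. This was not particular to them. The median was -0.15 for the pyruvate dehydrogenase complex list and -0.142 for the carnitine shuttle list. Over the other lists it ran from -0.261 (Pdk3 alone) to 0.257 (FOXO and glucocorticoid receptor targets).

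**Figure D4:**
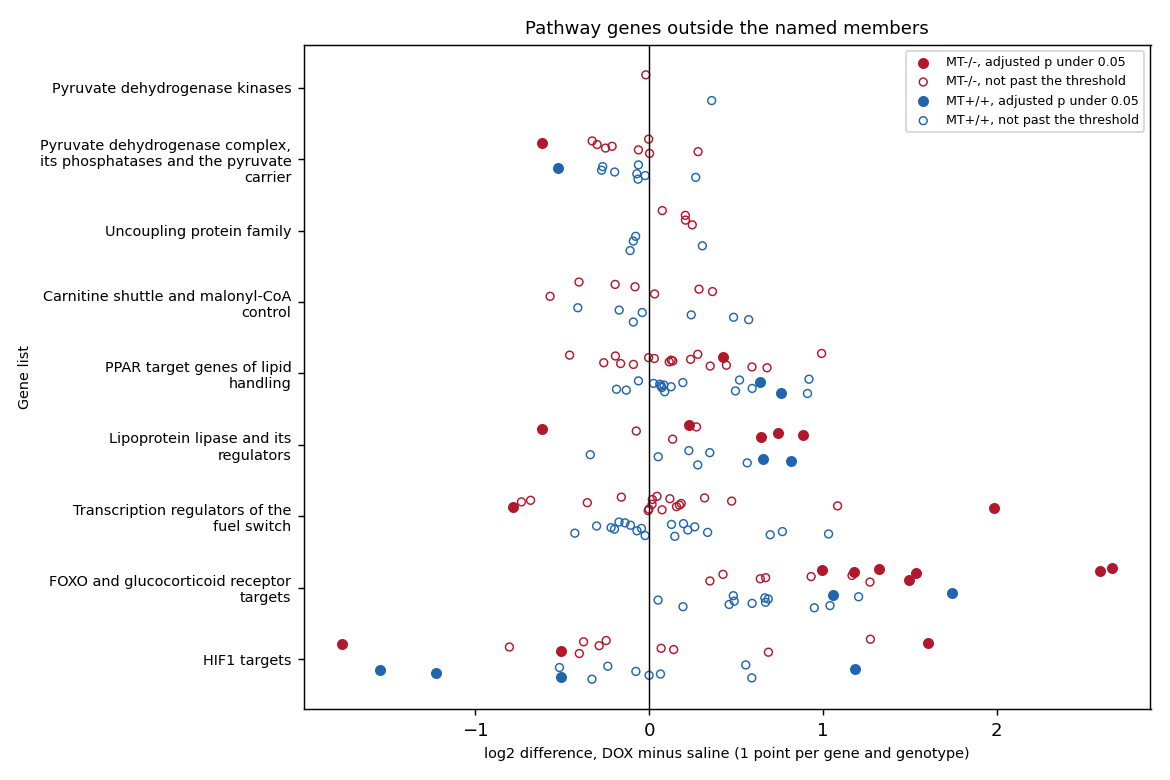
Log2 difference of DOX minus saline hearts (horizontal axis) for 92 genes around the fuel switch, by list (vertical axis), with 1 point per gene in MT-/- mice and 1 in MT+/+ mice; filled points passed adjusted p 0.05. Among the FOXO and glucocorticoid receptor targets 7 of 14 genes rose in MT-/- and 2 of 14 in MT+/+. Of all genes 2.76% rose in MT-/- and 1.24% in MT+/+, and the interaction test called 0 of these 14. No filled point appears in the uncoupling protein family or the carnitine shuttle.

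Downstream of the kinases, 9 genes of the pyruvate dehydrogenase complex, its phosphatases and the pyruvate carrier were tested. With DOX averaged over genotypes 2 fell and 0 rose (7.81% and 6.98% of all genes), and the median was -0.16. Dlat, the gene of the E2 acetyltransferase core, had 1442 and 1515 on MT-/- DOX arrays, 2112 and 2387 on MT-/- saline arrays, 1920 and 1718 on MT+/+ DOX arrays and 2441 and 2627 on MT+/+ saline arrays. The DOX arrays lay below the saline arrays in both genotypes, with a log2 difference of -0.57 ± 0.08 (limma adjusted p = 0.00265) averaged over them. Pdhb, of the E1 subunit, fell by 0.30 (adjusted p = 0.0115), a call lost without MT-/- saline replicate 2 (0.0536). Of the 4 tested relatives of Ucp3 none passed. Slc25a14 had a difference of 0.26 ± 0.08 (limma adjusted p = 0.0742) and Slc25a30 one of 0.07 ± 0.10 (0.724).

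Among the 7 tested genes of the carnitine shuttle and malonyl-CoA control, 1 rose and 1 fell (6.98% and 7.81% of all genes). Acacb, whose product makes the malonyl-CoA that inhibits CPT1, rose by 0.42 ± 0.11 (limma adjusted p = 0.0376). Cpt2, the inner membrane partner of CPT1, fell by 0.41 (adjusted p = 0.0436). Each call was kept in only 1 of 8 fits that left out an array, with adjusted p up to 0.145 for Acacb and 0.143 for Cpt2, and neither passed with a gene's probe sets averaged (0.257 and 0.102 in that order). The other probe set of Acacb gave -0.10. Cpt2 was also past the threshold neither under the deposited scaling (0.0562) nor without a filter (0.053) or the trend (0.0518).

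Of the 18 tested PPAR targets, 4 rose with DOX and 0 fell (6.98% and 7.81% of all genes), with a median of 0.16. Cidea, of a lipid droplet protein, rose by 0.68 ± 0.11 (limma adjusted p = 0.00632), and is also on the brown adipocyte marker list. Decr1, of an enzyme that oxidizes unsaturated fatty acids, rose by 0.47 ± 0.08 (adjusted p = 0.00739), but its other probe set gave -0.32 and the mean of both did not pass (0.681). Cd36, the fatty acid uptake receptor gene, rose by 0.31 ± 0.07 (adjusted p = 0.0169), a call lost without MT-/- saline replicate 2, MT+/+ DOX replicate 1 or MT+/+ saline replicate 2 (up to 0.0615), without the trend (0.0544) and with probe sets averaged (0.0501). Txnip, of an inhibitor of glucose uptake, rose by 0.79 ± 0.19 (adjusted p = 0.0272), a call lost without MT-/- DOX replicate 2, MT-/- saline replicate 1 or either MT+/+ DOX array (up to 0.0943).

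Around Angptl4, 4 of 8 tested genes of lipoprotein lipase and its regulators rose with DOX and 1 fell. The median was 0.27, and of all genes 6.98% rose and 7.81% fell. Pnpla2, the adipose triglyceride lipase gene, had 2554 and 3654 on MT-/- DOX arrays, 1442 and 1852 on MT-/- saline arrays, 2668 and 2574 on MT+/+ DOX arrays and 1378 and 1411 on MT+/+ saline arrays. Both genotypes showed the separation, with a rise of 0.85 ± 0.11 averaged over them (limma adjusted p = 0.00205). Lipe, of hormone-sensitive lipase, rose by 0.70 ± 0.10 (adjusted p = 0.00281), Vldlr, of a lipoprotein receptor, by 0.60 ± 0.10 (0.00587), and Lpl, of the lipase that ANGPTL4 inhibits, by 0.23 ± 0.04 (0.00691, but 0.0949 without the trend). Lmf1, of a maturation factor of lipoprotein lipase, fell by 0.48 (adjusted p = 0.00793). None of these 8 genes was called between genotypes.

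Of 19 tested transcription regulators of the switch, 2 rose with DOX and 1 fell, with a median of 0.05. These counts are near the shares of all genes, of which 6.98% rose and 7.81% fell. Klf15, of a glucocorticoid-induced factor of lipid use in heart and muscle, had 852 and 2208 on MT-/- DOX arrays, 280.2 and 398 on MT-/- saline arrays, 796 and 1264 on MT+/+ DOX arrays and 447 and 471 on MT+/+ saline arrays. It was 2.84-fold higher with DOX averaged over genotypes (1.51 ± 0.26, limma adjusted p = 0.0067). Nr3c1, of the glucocorticoid receptor, fell by 0.61 (adjusted p = 0.0135), a call lost without either MT-/- saline array (up to 0.0504). Foxo3 rose by 0.93 ± 0.23 (adjusted p = 0.0304) and lost its call without either MT-/- saline array, MT+/+ DOX replicate 2 or either MT+/+ saline array (up to 0.102). The PPAR genes Ppara and Ppard and the coactivator gene Ppargc1a did not pass. Their DOX differences averaged over genotypes were -0.06, -0.15 and 0.37 in that order, while the 2 other tested probe sets of Ppara gave 0.12 and 0.24. For MT-/- minus MT+/+ under DOX they were at -0.18 ± 0.18, 0.15 ± 0.15 and -0.54 ± 0.33. Under saline they were at -0.40 ± 0.18, 0.17 ± 0.15 and -0.76 ± 0.33, and none was called between genotypes.

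Of 14 tested FOXO and glucocorticoid receptor targets, 10 rose with DOX and 0 fell (6.98% and 7.81% of all genes), with a median of 0.88. The 6 with the smallest p were Fkbp5, Ddit4, Per1, Zbtb16, Klf9 and Sesn1. Fkbp5, a co-chaperone gene used as a readout of glucocorticoid action, had 1292 and 2036 on MT-/- DOX arrays, 239.5 and 234.7 on MT-/- saline arrays, 663 and 1186 on MT+/+ DOX arrays and 234.9 and 261.2 on MT+/+ saline arrays. Its DOX difference was 2.66 in MT-/- and 1.74 in MT+/+ hearts (limma adjusted p = 0.000309 averaged over both). The other 5 rose by 0.92 (Klf9, limma adjusted p = 0.0025) to 1.90 (Zbtb16, 0.0025), with Sesn1 at 1.27 (0.00404), Per1 at 1.19 (0.002) and Ddit4 at 1.11 (0.0018). Between genotypes none of the 14 was called under either treatment, in limma fits that called 0.292% of all genes under DOX and 0.177% under saline. The median genotype difference of the list was 0.26 under DOX and -0.27 under saline. Its relation to the differences of Pdk4 and Ucp3 was not tested.

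Of 12 tested HIF1 targets, 3 rose with DOX and 6 fell (6.98% and 7.81% of all genes), with a median of -0.21. Bnip3, of a mitophagy receptor, had 6098 and 8280 on MT-/- DOX arrays, 2039 and 2648 on MT-/- saline arrays, 4233 and 6489 on MT+/+ DOX arrays and 2041 and 2388 on MT+/+ saline arrays, a rise of 1.39 ± 0.13 averaged over genotypes (limma adjusted p = 0.000528). Egln3, of an oxygen-sensing hydroxylase, went the other way, with 326 and 395 on MT-/- DOX arrays, 1007 and 1651 on MT-/- saline arrays, 237 and 289 on MT+/+ DOX arrays and 545 and 1043 on MT+/+ saline arrays, and fell by 1.66 (limma adjusted p = 0.00169). The glycolytic genes Pgk1 and Ldha and the collagen hydroxylase gene P4ha1 fell by 0.51, 0.24 and 1.02 in that order, and Adm rose by 0.64. The calls of Ldha (adjusted p = 0.0163, up to 0.0726) and Adm (0.0161, up to 0.0561) were lost without some single arrays. For Ldha these were either MT-/- saline array, MT+/+ DOX replicate 1 and MT+/+ saline replicate 2, and its call was also lost without the trend (0.0809). For Adm they were either MT-/- saline array, MT+/+ DOX replicate 1 and MT+/+ saline replicate 1. Pdk1, a HIF1 target among the members, had higher mean signal with DOX in both genotypes by its 3 tested probe sets.

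Other cell types also express several of the members, so marker lists were read beside them. Brown adipocyte markers, of which Cox7a1 made up 91.2% of the summed signal, summed to 5859 to 6837 on MT-/- DOX arrays, 9163 to 9557 on MT-/- saline arrays, 7797 to 8421 on MT+/+ DOX arrays and 9882 to 10070 on MT+/+ saline arrays. Dio2 and Zic1 were below the array median on every array, and Cox7a1 is also a heart gene. This sum was lowest in the group where Ucp3 and Pdk4 were lowest, and its part in the result was not tested. Of the skeletal muscle markers, Tnnt3, Myh4, Myh1, Myh2 and Actn3 were below the array median on every array. The sum, 90.5% of it Ckm, was 7781 to 7786 on MT-/- DOX arrays, 9641 to 10380 on MT-/- saline arrays, 7619 to 8277 on MT+/+ DOX arrays and 10400 to 10550 on MT+/+ saline arrays, so it overlapped between genotypes under DOX.

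The white adipocyte markers Adipoq, Lep and Nnat were below the median on every array, and the sum, 96.8% of it Fabp4, was 8282 to 8538 on MT-/- DOX arrays, 9927 to 10380 on MT-/- saline arrays, 8389 to 8885 on MT+/+ DOX arrays and 9302 to 9875 on MT+/+ saline arrays. Markers of the stroma moved with DOX in both genotypes. With DOX averaged over them, 10 of 10 macrophage markers fell, with a median of -0.76, and 5 of 8 fibroblast markers fell, with a median of -1.41. For this and the other marker lists, the shares of all genes were 7.81% that fell and 6.98% that rose. The macrophage list summed to 6372 to 6965 on MT-/- DOX arrays, 9458 to 11440 on MT-/- saline arrays, 5046 to 5881 on MT+/+ DOX arrays and 9969 to 11780 on MT+/+ saline arrays. The fibroblast list summed to 10980 to 11690 on MT-/- DOX arrays, 17190 to 20540 on MT-/- saline arrays, 10130 to 11380 on MT+/+ DOX arrays and 16150 to 16200 on MT+/+ saline arrays. Both lists thus separated DOX from saline arrays in each genotype, as did the sums of cardiomyocyte, skeletal muscle, white adipocyte and brown adipocyte markers. Of the other lists, 4 of 10 cardiomyocyte markers, 2 of 8 endothelial markers, 1 of 5 tested skeletal muscle markers and 1 of 3 tested white adipocyte markers fell, 1 of 4 tested brown adipocyte markers rose and 1 fell, and of 2 tested liver markers 0 passed, with Alb, Fgb and Cyp3a11 below the median on every array. Their part in the DOX differences of Pdk1 and Pdk2 was not tested. Between genotypes 0 markers of any of the 8 lists were called, where 0.292% of all genes were under DOX and 0.177% under saline. Those limma fits had 1829 and 2133 probe sets at an unadjusted p under 0.05, in that order.

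The genes whose profile over the 8 arrays lay closest to Pdk4, by the root mean square difference of log2 values centred on each gene's mean, were Riok3 (0.26), Nedd1 (0.33), Pttg1 (0.34), Rab6b (0.35) and Angptl4 (0.35). Those closest to Ucp3, by its probe set 1420657_at, were Riok3 (0.34), Pdk4 (0.42), Prdx2 (0.48), Cd59a (0.48) and Nedd1 (0.49). Pdk4 was thus among the 5 genes closest to Ucp3, while Ucp3 had rank 21 among the genes closest to Pdk4. Pdk4, Ucp3 and Angptl4 were chosen as members with these same values known, so nothing is read from their likeness to each other. Riok3, of a RIO-family protein kinase, headed both sets, with 78.5 and 120.5 on MT-/- DOX arrays, 229.7 and 184.5 on MT-/- saline arrays, 437.0 and 433.2 on MT+/+ DOX arrays and 315.0 and 368.1 on MT+/+ saline arrays. It kept the same order of groups as Pdk4 and Ucp3, but it was picked for its likeness to them, so nothing is read from that order. The points compared share the 8 arrays and their scaling, and likeness was measured over these few arrays only.

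**Figure D5:**
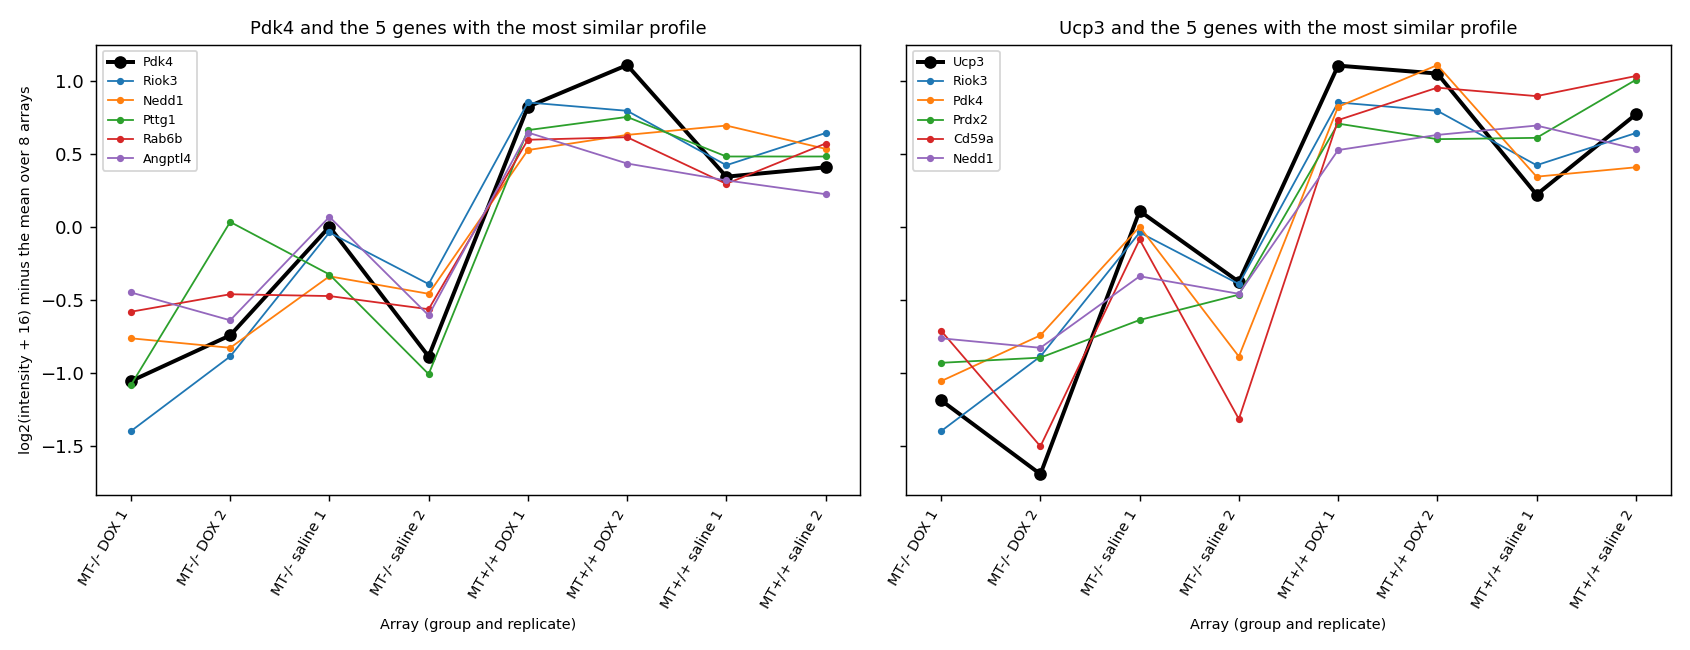
Log2 values minus each gene's mean (vertical axis) on the 8 arrays (horizontal axis) for Pdk4 with its 5 closest genes and for Ucp3 with its 5 closest genes; lines join the arrays only to guide the eye. In both panels the 4 arrays labelled MT-/- lie mostly below 0 and the 4 labelled MT+/+ above it, with Riok3 the closest gene in each (0.26 and 0.34).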

How the data were processed

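Total RNA of 8 heart samples was measured on one-colour Affymetrix arrays. The deposited values are 1 linear intensity per probe set and array, made by the authors with GCOS 1.4 per the submitters' processing notes. Nothing more on the signal algorithm, the scaling target or detection calls was found in the labels. Array medians were 80 to 87.4, and the number of arrays, 2 per group, limits the precision. The table's 64 control probe sets were left out. Of the other 45037, the platform annotation gave 34945 probe sets 1 symbol, 932 several and 9160 none, and 34741 of the first matched a RefSeq gene number, with 0 symbols updated.

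From the intensity, log2(intensity + 16) was computed here after quantile normalization, and probe sets at or above the array median on at least 2 arrays were tested (24751, of 13008 genes). The tests were limma 3.58.1 in R 4.3.3 on 4 group means over 8 arrays, with eBayes and a mean-variance trend (4 residual and 4.66 prior degrees of freedom), two-sided with Benjamini-Hochberg adjustment at 0.05 over all tested probe sets. They were checked on simulated data. With 2 arrays in each of 2 groups an exact permutation test reaches at best p = 0.333, so none was run. The labels call the replicates biological without tying them to animals, so p-values measure the spread between these samples.

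The members and gene lists were chosen with earlier results of these data known. The text names all member probe sets, from each list up to 6 genes past the threshold for DOX averaged over genotypes (or, if none passed, the 2 of smallest p), and the 5 genes closest to Pdk4 and to Ucp3. Plin5, Ppara, Ppard and Ppargc1a were named after their values were seen. Each listed gene stands by its brightest tested probe set. Alternatives were the deposited scaling, pseudocounts of 4 and 64, no filter and a stricter one (4 arrays), eBayes without trend, the mean of a gene's probe sets, only the groups compared, a replicate block, and leaving out each array. Groups share replicate numbers 1 and 2, but the labels do not say that a number links mice, and correlations of same-numbered deviations over the 6 pairs of groups were 0.36 to 0.542, with too few numbers to settle a pairing.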

Additional observations from a re-analysis of the deposited data

Results flagged for a closer look

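The DOX effect of Ucp3 ran in opposite directions in the 2 genotypes, with no overlap of arrays in either. By probe set 1420657_at the effect in MT-/- minus that in MT+/+ was -1.89 on the log2 scale, and by 1420658_at it was -0.82. Plin5 held the same pattern, with a difference of -0.83 between the effect in MT-/- (-0.19) and that in MT+/+ (0.64). The pattern was held by 1.05% of all tested probe sets and its mirror image by 1.28%. Finding 1 such gene among the 92 listed is near that share, so nothing is read from it. Ucp3 was chosen with its values in all 4 groups known, so nothing is read from its pattern either. Its 2 probe sets measure the same gene on the same arrays. The interaction test of limma called none of these 3 probe sets, with 0 of 24751 past adjusted p 0.05 and 573 at an unadjusted p under 0.05. Groups of 2 arrays are too small for a search for single outlying arrays.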

How the results depend on the processing

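With the replicate number as a replicate block, 6702 probe sets were called for DOX averaged over genotypes, 4188 for DOX within MT-/-, 2740 within MT+/+, 383 for genotype under DOX, 209 for genotype under saline and 1 for the interaction, and the pathway genes called were 37 for DOX within MT-/-, 27 within MT+/+, 4 for genotype under DOX and 1 for genotype under saline. Slc25a14, not past the threshold for DOX averaged over genotypes (adjusted p = 0.0742), passed with the block (0.022). The cause was not tested, and no pairing of the mice is known. Fitting only the groups compared gave 948 calls for DOX in MT-/- and 36 for genotype under DOX, with 0 pathway genes for genotype under DOX, as also under the deposited scaling (0). That fit gives no value for contrasts that use all 4 groups. Without a filter 6 pathway genes were called for DOX in MT+/+. A pseudocount of 64 moved Ucp3 1420657_at to -0.98 for DOX in MT-/- and to -2.04 for genotype under DOX, since it shrinks dim values. Under the deposited scaling Pdk1 1423748_at was at 0.35 for genotype under saline.

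Leaving out 1 array leaves a lone array in a group, which is assumed to vary like the others. Calls then ranged from 1713 to 3829 for DOX averaged, 383 to 1994 within MT-/-, 46 to 771 within MT+/+, 23 to 62 for genotype under DOX, 15 to 50 for genotype under saline and 0 to 1 for the interaction. Pathway genes called ranged from 21 to 40, 4 to 30, 0 to 12 and 0 to 0 over the first 4 of these. Pdk4 ranged from -0.91 to -0.012 for DOX in MT-/- and from -1.26 to -0.38 for genotype under saline, and from -2.03 to -1.72 for genotype under DOX. Signs reversed for Angptl4 1417130_s_at in DOX within MT-/- (-0.61 to 0.062, positive without MT-/- saline replicate 1) and for Cpt1a 1434866_x_at in genotype under saline (-0.53 to 0.51, positive without MT+/+ saline replicate 2) and in the interaction (-1.02 to 0.019, positive without MT+/+ saline replicate 1). Of the 28 named genes called for DOX averaged over genotypes, 19 held in every fit that left out 1 array and 22 under every other planned setting and the block.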
